A study of Saccharomyces cerevisiae with 6 samples.

Results

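Succinate dehydrogenase, complex II of the respiratory chain, was examined at the transcript level in budding yeast cells grown on glycerol, a carbon source that can only be respired, and on glucose, which yeast ferments. The genes comprised the 4 subunit genes SDH1, SDH2, SDH3 and SDH4 and the 3 paralogs YJL045W, YMR118C and YLR164W, which RefSeq lists as SDH9, SHH3 and SHH4. They were taken from the table by gene name or systematic name, without a filter on their values, and all 7 were found among its 7126 genes. The set was chosen with earlier results of these data known. Both groups were cultures of BY4741, a wild-type haploid yeast of mating type a that is widely used in laboratories, grown overnight in synthetic complete (SC) medium. The glycerol group and the glucose group had 3 libraries each, and carbon source was the only label that separated them. The libraries came from poly(A) RNA and were sequenced without strand information, and they held between 15289163 and 20038052 counts on genes.

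Succinate dehydrogenase oxidizes succinate to fumarate in the tricarboxylic acid (TCA) cycle and hands the electrons to ubiquinone, so the same enzyme serves both the cycle and the respiratory chain. Sdh1 carries a covalently bound flavin and the site at which succinate is oxidized, Sdh2 carries the iron-sulfur clusters that pass the electrons on, and Sdh3 and Sdh4 anchor these catalytic subunits in the inner mitochondrial membrane, where ubiquinone is reduced. All of these genes lie in the nucleus. In budding yeast Sdh3 is in addition a subunit of the TIM22 translocase, which inserts carrier proteins into the inner membrane.

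The strain labels were checked first. LEU2, MET17 and URA3, which are deleted in BY4741, had 0 counts in all 6 libraries. HIS3, of which the strain's allele removes only a part, had 944, 662 and 819 counts in glycerol and 958, 1216 and 1176 in glucose. All 5 genes expressed by cells of mating type a were present in every library, with 663 to 19657 counts, and 5 of 5 were lower in glycerol, whereas the 4 genes typical of the opposite mating type had 39 to 1811 counts and 4 of 4 were higher in glycerol. STE2 of type a fell most (log2 fold change -4.51), to 1099, 1011 and 1256 counts in glycerol. SAG1, of the opposite type, had 1513, 1321 and 1811 there, more than any of the 5 in each library, whereas the others of its type had fewer. This check was therefore less clear in glycerol than in glucose. Of 6330 tested genes, 2637 were called higher in glycerol (adjusted p under 0.05) and 2539 lower. The part of these mating genes in the members' values was not tested.

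Transcripts of all 4 subunits and of all 3 paralogs were higher in glycerol than in glucose. Of 7 genes tested, 7 passed edgeR's quasi-likelihood test in this direction (adjusted p between 2.4e-12 and 2.2e-06), and in 7 of 7 every glycerol library lay above every glucose library. Most genes of this yeast differed between the media, since 81.8% of 6330 tested genes were called in either direction, 41.7% were called higher in glycerol and 43.0% had no overlap with glycerol above. A call in this direction was therefore common. The members' median log2 fold change was 2.64, beside 0.03 over all tested genes, and 5 of 7 reached a log2 fold change of 2, beside 10.6% of all tested genes. The subunits had a median of 3.07 and the paralogs one of 1.45. These values are relative to the other transcripts of a culture, and a change in RNA per cell or in the mix of cells cannot be told apart from a change in a gene's own output.

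SDH1, the flavoprotein gene (YKL148C, chromosome XI, 169207-171129, minus strand, R64), showed the largest change of the 7. Its level was 1008, 1103 and 1202 normalized CPM (counts scaled to a common library size, with a correction for composition) in the glycerol libraries, against 53.2, 63.9 and 74.9 normalized CPM in the glucose libraries. The lowest glycerol library thus stood far above the highest glucose library. The means were 1104 ± 96.7 in glycerol and 63.98 ± 10.9 in glucose (SD, n = 3 each), a 17.3-fold difference (log2 fold change 4.11, SE 0.15, adjusted p = 2.4e-12). SDH1 had the 148th highest fold change of the 6330 tested genes. In reads, these levels rested on 22478, 21231 and 28570 counts in glycerol and on 702, 918 and 990 in glucose.

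SDH2, the iron-sulfur subunit gene (YLL041C, chromosome XII, 53131-53931, minus strand), followed. It had 796, 889 and 996 normalized CPM in glycerol and 63.3, 80.0 and 95.2 in glucose. The groups did not overlap, and within both groups replicate 1 was the lowest and replicate 3 the highest, as for SDH1. Mean levels of 893.6 ± 99.9 in glycerol and 79.5 ± 15.9 in glucose (SD, n = 3 each) gave an 11.2-fold difference (log2 fold change 3.49, SE 0.16, adjusted p = 2.4e-11).

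Both membrane anchor genes changed by less. SDH3 (YKL141W, chromosome XI, 179667-180263, plus strand), whose product binds the haem of the complex together with Sdh4, had 680.0, 804 and 745 normalized CPM in glycerol, against 126, 117 and 129 in glucose. SDH4 (YDR178W, chromosome IV, 817950-818495, plus strand) had 522, 636 and 549 normalized CPM in glycerol, against 91.3, 96.5 and 85.9 in glucose. In both genes the glucose libraries lay within a narrow band and replicate 2 was the highest glycerol library. SDH3 rose 6.00-fold (log2 fold change 2.58, SE 0.12, adjusted p = 2.4e-11) and SDH4 rose 6.24-fold (log2 fold change 2.64, SE 0.12, adjusted p = 2.4e-11). SDH1 and SDH3 lie 8537 bases apart on the same chromosome arm and on opposite strands, with other genes between them, and no member overlaps another annotated gene.

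**Figure D1:**
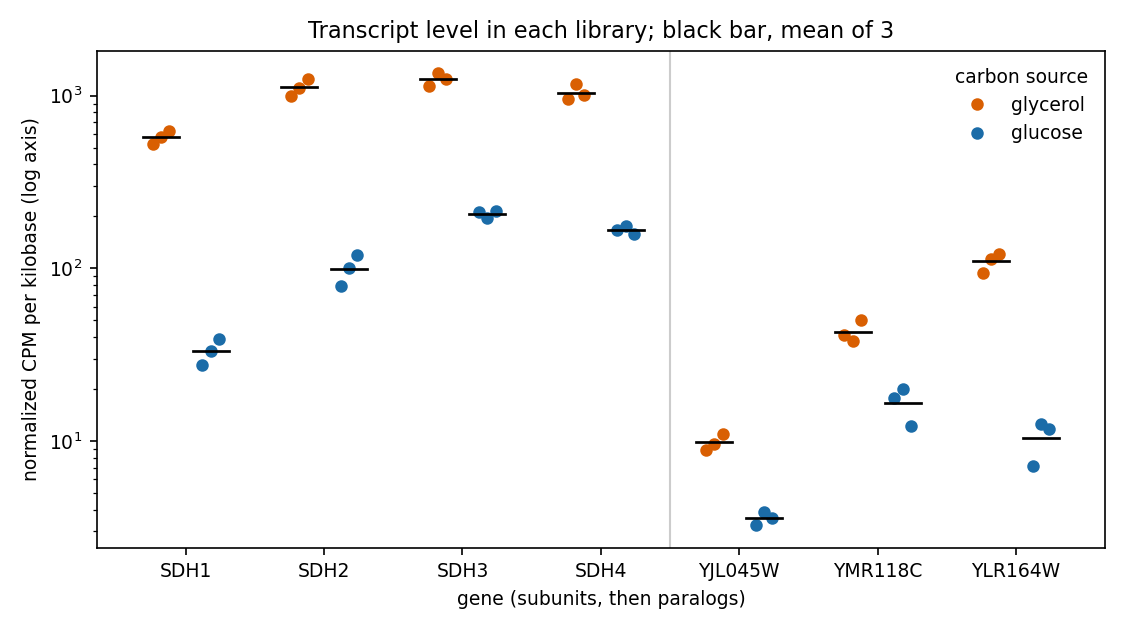
Normalized CPM per kilobase of gene (log axis) in each of the 6 libraries for the 4 subunit genes and the 3 paralogs, with glycerol libraries in orange, glucose libraries in blue and the mean of 3 as a black bar. The 2 carbon sources do not overlap for any gene, and SDH1 shows the widest gap (574 in glycerol, 33.3 in glucose) and YMR118C the narrowest (43.1 in glycerol, 16.7 in glucose).

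Levels of different genes were compared per kilobase of gene. In glycerol, SDH3 had the highest level with 1245 ± 104 normalized CPM per kilobase, followed by SDH2 with 1116 ± 125, SDH4 with 1042 ± 109 and SDH1 with 574 ± 50.3 (SD, n = 3 each). The ranges of SDH3 and SDH2 overlapped, as did those of SDH2 and SDH4, so the order of these neighbours was not separated by the spread of the libraries. Within a library, SDH3 was above SDH2 in 3 of 3 and SDH2 above SDH4 in 2 of 3, whereas SDH1 lay below SDH4 in 3 of 3 libraries without overlap. In glucose the order was SDH3 with 207.5 ± 10.8 normalized CPM per kilobase, SDH4 with 167 ± 9.76, SDH2 with 99.2 ± 19.9 and SDH1 with 33.3 ± 5.65, and no neighbours among these overlapped. SDH1, the gene of the catalytic subunit, was thus the lowest of the 4 subunit transcripts per kilobase on both carbon sources. In glycerol this rank rests on the division by gene length. Without it SDH1 was the highest of the 4, with 1104 normalized CPM, against 894 for SDH2, 743 for SDH3 and 569 for SDH4. Summed over the 4 subunits, the level was 3977 ± 316 normalized CPM per kilobase in glycerol and 507 ± 22.6 in glucose (SD, n = 3 each), a 7.84-fold difference.

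The proportions among the subunit transcripts also differed between the media. Ratios taken within a library do not depend on how libraries are scaled to each other. The log2 ratio of SDH3 to SDH1, per kilobase, was 1.12, 1.23 and 0.999 in the glycerol libraries and 2.94, 2.55 and 2.47 in the glucose libraries, which is a mean ratio of 2.17 in glycerol and 6.29 in glucose. For SDH4 to SDH1 the log2 ratios were 0.87, 1.02 and 0.69 in glycerol and 2.60, 2.41 and 2.01 in glucose, with mean ratios of 1.81 in glycerol and 5.07 in glucose. Per kilobase, the 4 subunits were thus closer to equal transcript levels in glycerol, and SDH1 lay furthest below the anchors in glucose. The closer levels in glycerol rest on the division by gene length. Without it the highest and lowest means were 1104 (SDH1) and 569 (SDH4) normalized CPM in glycerol. In glucose they were 123.9 (SDH3) and 63.98 (SDH1), a similar relative spread.

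SDH2 and SDH1, which encode the catalytic pair, kept closer to each other. Their log2 ratio was 0.92, 0.95 and 0.99 in glycerol and 1.52, 1.59 and 1.61 in glucose, with mean ratios of 1.94 in glycerol and 2.97 in glucose. The difference between the media was -0.61 for SDH2, -1.54 for SDH3 and -1.48 for SDH4 on the log2 scale. None of the 3 ratios overlapped between glycerol and glucose, and each gave p = 0.1 in an exact two-sided permutation test over libraries, the smallest value that 3 against 3 can give, so none could pass 0.05.

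**Figure D2:**
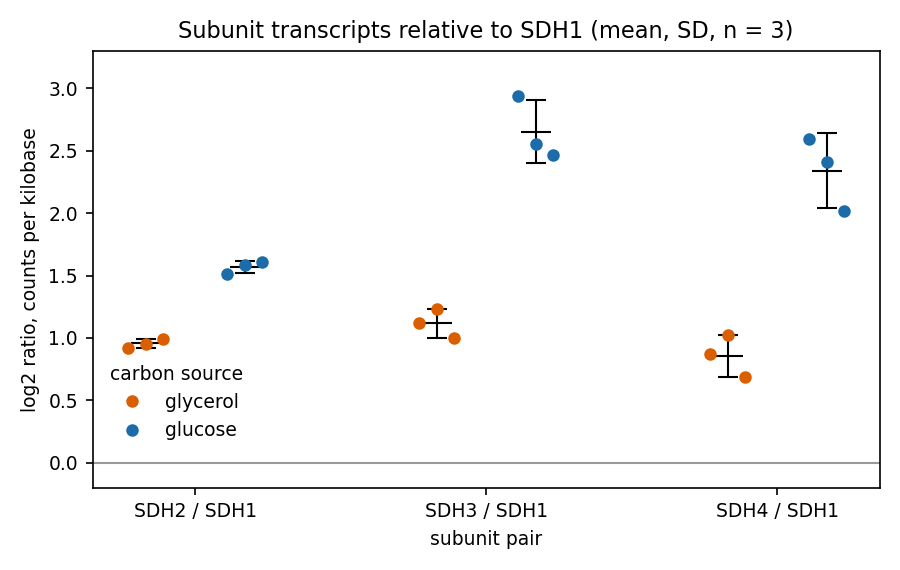
Log2 ratio of SDH2, SDH3 and SDH4 to SDH1 (counts per kilobase) in each library, glycerol in orange and glucose in blue, with the mean and SD of 3. All ratios lie above 0, and the glycerol values lie below the glucose values for each pair, with differences of -0.61 for SDH2, -1.54 for SDH3 and -1.48 for SDH4.

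The paralogs resemble their partners closely enough that the assignment of reads matters. Over aligned coding sequence YJL045W was identical to SDH1 at 1450 of 1899 positions (76.4%), YMR118C to SDH3 at 342 of 553 (61.8%) and YLR164W to SDH4 at 320 of 498 (64.3%). The longest stretches without a difference are printed here with 12 flanking bases on each side, read from the R64 genome, with the shared run in capitals and positions counted from the A of the start codon.
SDH1, coding bases 988 to 1034, chrXI:170096-170142, minus strand: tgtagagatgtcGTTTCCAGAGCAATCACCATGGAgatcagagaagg
YJL045W, coding bases 970 to 1016, chrX:356993-357039, plus strand: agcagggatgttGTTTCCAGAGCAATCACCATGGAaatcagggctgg
SDH3, coding bases 481 to 514, chrXI:180147-180180, plus strand: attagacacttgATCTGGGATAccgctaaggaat
YMR118C, coding bases 475 to 508, chrXIII:502227-502260, minus strand: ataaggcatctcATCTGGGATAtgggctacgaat
SDH4, coding bases 346 to 386, chrIV:818295-818335, plus strand: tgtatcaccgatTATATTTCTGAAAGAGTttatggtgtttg
YLR164W, coding bases 322 to 362, chrXII:494204-494244, plus strand: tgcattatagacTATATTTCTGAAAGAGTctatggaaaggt

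The shared runs spanned 23 bases in the SDH1 pair, 10 in the SDH3 pair and 17 in the SDH4 pair, all far shorter than the 150-base reads. Of the most similar 150 columns of each alignment, 130 were identical in the SDH1 pair, 96 in the SDH3 pair and 103 in the SDH4 pair, so no read-length stretch was free of differences. How the counting treated reads that fit several genes is not given in the sources used here, and the part of misassigned reads in the paralogs' counts was not tested.

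YLR164W, the SDH4 paralog (chromosome XII, 493883-494389, plus strand), had a larger fold change than SDH4 itself. It had 1064, 1113 and 1467 counts in glycerol, against 48, 91 and 79 in glucose, or 47.7, 57.8 and 61.7 against 3.63, 6.34 and 5.98 normalized CPM. Every glycerol library was several times higher than any glucose library, and replicate 1 was the lowest on both carbon sources. The fold difference was 10.4 (log2 fold change 3.38, SE 0.18, adjusted p = 1.0e-10).

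The other paralogs changed by much less. YJL045W, the SDH1 paralog (chromosome X, 356024-357928, plus strand), had 375, 353 and 499 counts in glycerol and 82, 107 and 91 in glucose. That corresponds to 18.7 ± 2.11 normalized CPM in glycerol and 6.85 ± 0.621 in glucose (SD, n = 3 each), a 2.73-fold difference (log2 fold change 1.45, SE 0.15, adjusted p = 2.8e-07). YMR118C, the SDH3 paralog (chromosome XIII, 502144-502734, minus strand), had 540, 434 and 705 counts in glycerol and 139, 169 and 96 in glucose. Its means of 25.5 ± 3.72 normalized CPM in glycerol and 9.85 ± 2.33 in glucose (SD, n = 3 each) gave a 2.58-fold difference (log2 fold change 1.37, SE 0.17, adjusted p = 2.2e-06). In neither gene did the groups overlap, and their fold changes ranked 1067th and 1154th of the tested genes, far behind the subunits.

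All 3 paralogs lay below every subunit per kilobase on both carbon sources, and in glycerol they were minor transcripts beside the subunits. In glucose YMR118C stood nearer to SDH1, the lowest subunit, with means of 16.7 and 33.3 normalized CPM per kilobase. Per kilobase, YLR164W had 110 ± 14.2 normalized CPM, YMR118C 43.1 ± 6.29 and YJL045W 9.82 ± 1.11 in glycerol, none overlapping. In glucose YMR118C had 16.7 ± 3.94, YLR164W 10.5 ± 2.89 and YJL045W 3.59 ± 0.326 normalized CPM per kilobase, and the first 2 of these overlapped. YLR164W, the most abundant paralog in glycerol, was thus above YMR118C in no glucose library. The summed level of the paralogs was 163 ± 19.5 in glycerol and 30.7 ± 4.83 in glucose (SD, n = 3 each), a 5.30-fold difference.

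The share of each pair that the paralog contributed differed in opposite directions. YJL045W made up 1.66, 1.65 and 1.73% of the SDH1 pair in the glycerol libraries, against 10.6, 10.5 and 8.49% in the glucose libraries, per kilobase. YMR118C made up 3.47, 2.76 and 3.86% of the SDH3 pair in glycerol, against 7.76, 9.25 and 5.39% in glucose. Both paralogs thus formed a smaller part of their pair in glycerol, with differences of -8.18 percentage points for YJL045W and -4.10 for YMR118C. YLR164W was the exception, with 8.96, 8.92 and 10.8% of the SDH4 pair in glycerol and 4.11, 6.60 and 6.97% in glucose, a mean of 9.56 ± 1.08% in glycerol and 5.90 ± 1.56% in glucose (SD, n = 3 each). In no pair did the shares of the carbon sources overlap, and each gave p = 0.1 in an exact two-sided permutation test, again the smallest possible. The shares came out the same from the FPKM values that the authors deposited. This follows by construction, since both divide the same counts by gene length and a library's scaling cancels in a share.

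**Figure D3:**
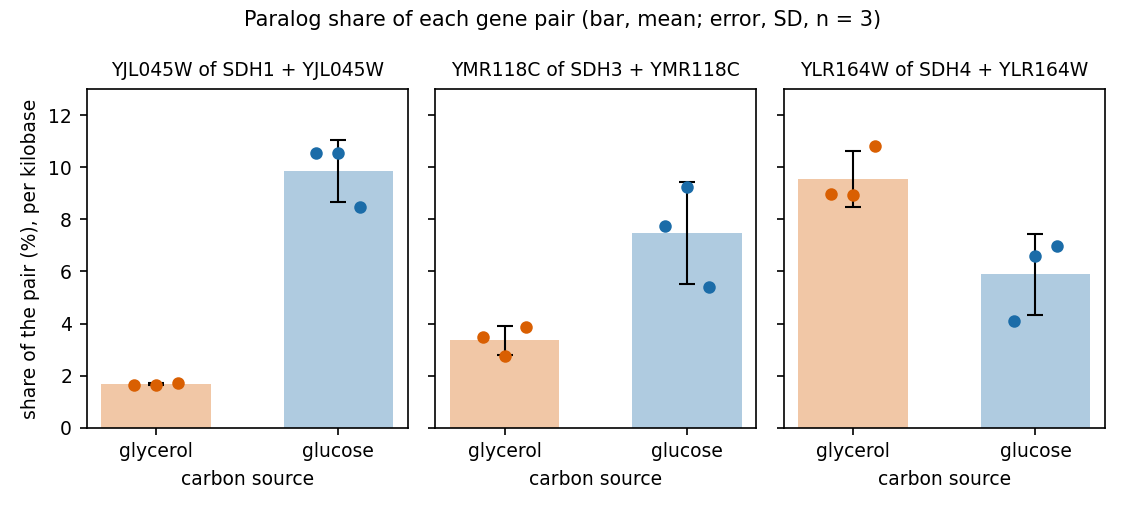
Share of the transcripts of each gene pair (percent, counts per kilobase) that came from the paralog, by library, with glycerol on the left and glucose on the right of each panel, bars for the mean and error bars for the SD of 3. YJL045W averages 1.68% in glycerol, against 9.86% in glucose, and YMR118C 3.36% in glycerol, against 7.47% in glucose, whereas YLR164W averages 9.56% in glycerol, against 5.90% in glucose.

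The 500 bases upstream of each start codon were searched on both strands for 5 short motifs known from carbon source control in yeast. The motifs were CCAAT, the core bound by the Hap2/3/4/5 complex that activates respiratory genes, its longer form ACCAATNA, which contains CCAAT, the core CCNNNNNNCCG of the element bound by Cat8 and Sip4, the stress response core AGGGG, and a Mig1 type box that ends in GGGG and begins with GC, GT, CC or CT, Mig1 being a repressor active in glucose. Positions are counted back from -1, the base before the start codon, and the coordinates are those of R64. Capitals mark the matches on either strand, and each stretch holds the densest group of matches that lies more than 100 bases from the start codon and outside other genes.
SDH1, -351 to -299, chrXI:171428-171480, minus strand: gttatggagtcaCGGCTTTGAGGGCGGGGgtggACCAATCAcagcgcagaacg
SDH2, -172 to -138, chrXII:54069-54103, minus strand: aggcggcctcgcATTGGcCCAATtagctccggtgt
SDH3, -159 to -131, chrXI:179508-179536, plus strand: aggtccattctgATTGGctgcggtagccc
SDH4, -245 to -192, chrIV:817705-817758, plus strand: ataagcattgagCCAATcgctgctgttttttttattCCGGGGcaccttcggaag
YJL045W, -289 to -217, chrX:355735-355807, plus strand: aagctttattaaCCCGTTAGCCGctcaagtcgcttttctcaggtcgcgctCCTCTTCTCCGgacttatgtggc
YLR164W, -254 to -226, chrXII:493629-493657, plus strand: tctcacatccagATTGGagtacccttatc

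CCAAT was found upstream of 5 of 7 members, namely all 4 subunit genes and YLR164W, and in 63.4% of the 6659 upstream windows of the genome. The longer ACCAATNA occurred in 8.71% of windows and in SDH1 alone among the members, where it lies a few bases from a Mig1 type box and a Cat8/Sip4 core that adjoin each other. In SDH2 a pair of CCAAT cores lies back to back, on opposite strands and pointing away from each other. YJL045W held 2 Cat8/Sip4 cores (21.4% of windows hold 1 or more), and SDH1 also had 2. AGGGG was found in SDH1, SDH2 and SDH4 (33.7% of windows) and a Mig1 type box in SDH1, SDH3, SDH4 and YLR164W (23.1% of windows). The window of YMR118C held none of the 5 motifs. A match describes letters only, and binding was not measured here. Whether any motif bears on the fold changes was not tested. YLR164W shares its upstream region of 628 bases with MAS1, which is transcribed the other way and encodes a subunit of the mitochondrial processing peptidase, and MAS1 rose by a log2 fold change of 0.96 (SE 0.10, adjusted p = 4.4e-07). AVT3 lies 653 bases upstream of SDH1 on the opposite strand and rose by 2.14 (SE 0.12, adjusted p = 3.2e-10). The annotated gene YKL147C, which overlaps AVT3, lies nearer to SDH1.

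Genes for building the enzyme did not all move with it. Of 8 genes for assembly and flavin supply, 4 rose, 3 fell and 1 was not called (median log2 fold change 0.50). The share called higher, 50%, was near the 41.7% of all tested genes. SDH6, an assembly factor for the iron-sulfur subunit, rose most (log2 fold change 2.46, SE 0.12), with 68.9, 76.0 and 71.6 normalized CPM in glycerol, against 10.9, 13.99 and 14.3 in glucose. SDH8 (1.07), which binds flavinylated Sdh1, TCM62 (0.97), a chaperone of the complex, and SDH7 (0.91), which acts with Sdh6, rose by less. SDH5, required to attach the flavin to Sdh1, had 43.1, 45.7 and 42.9 normalized CPM in glycerol and 41.9, 39.7 and 42.4 in glucose (log2 fold change 0.09, SE 0.10, adjusted p = 0.421). The genes that supply the flavin itself fell, namely FLX1 (-1.02), the mitochondrial flavin carrier, FMN1 (-1.01), riboflavin kinase, and FAD1 (-0.42), FAD synthetase, although FAD1 lost its call and its direction with scaling by library totals alone.

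The TIM22 translocase, which shares Sdh3 with complex II, showed no common direction. Of 6 genes, 2 rose, 2 fell and 2 were not called (median log2 fold change 0.05). The share called higher, 33.3%, was near the 41.7% of all tested genes. TIM10, a small chaperone of the intermembrane space, fell most, with 150, 157 and 152 normalized CPM in glycerol, against 424, 433 and 370 in glucose (log2 fold change -1.42, SE 0.11). TIM9, its partner, rose most (0.58, SE 0.13). TIM12 fell by less (-0.34, SE 0.12), and its call was lost without glycerol replicate 1 or glucose replicate 2 (adjusted p of 0.0997 and 0.101). TIM22, the channel (-0.11, adjusted p = 0.341), and TIM54 (0.22, adjusted p = 0.069) did not pass the edgeR test, although TIM54 passed with a minimum of 50 counts, with the replicate number as a block and without glycerol or glucose replicate 3 (adjusted p between 0.030 and 0.049). TIM18, which is related to SDH4 in sequence, had a log2 fold change of 0.28 (SE 0.12, adjusted p = 0.039), a call that was lost with DESeq2 (adjusted p = 0.070) and without glycerol replicate 1 or 3 or glucose replicate 1 or 2 (adjusted p between 0.072 and 0.106).

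The other matrix enzymes of the TCA cycle all rose, 13 of 13, with a median log2 fold change of 2.01. Over all tested genes 41.7% were called higher. CIT3, the minor mitochondrial citrate synthase, rose most (4.24, SE 0.12), with 138, 134 and 150.2 normalized CPM in glycerol and 7.495, 8.08 and 6.73 in glucose. LSC1, the alpha subunit of succinyl-CoA ligase, which makes the succinate that the complex oxidizes, rose least (1.16, SE 0.11). LSC2, the beta subunit of the same enzyme, rose by 3.47 (SE 0.12), so the low value is that of 1 subunit and not of the enzyme. CIT3 was the only enzyme of this list with a larger fold change than SDH1, and SDH2, SDH3 and SDH4 lay within the list's range. Whether these fold changes differ from each other was not tested.

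Of 6 genes that supply, carry or re-form succinate and fumarate, 3 rose and 3 fell (median log2 fold change 0.13). The share called higher, 50%, was near the 41.7% of all tested genes. SFC1, the succinate-fumarate carrier of the inner membrane, rose most, with 221, 240 and 214 normalized CPM in glycerol, against 1.89, 2.65 and 3.48 in glucose (log2 fold change 6.39, SE 0.17). ICL1, isocitrate lyase of the glyoxylate cycle, a further source of succinate, rose by 3.76, and UGA2, succinate semialdehyde dehydrogenase, by 0.85. The fumarate reductases, which run the reaction in the opposite direction with soluble cofactors, both fell, FRD1 by a log2 fold change of -1.77 and OSM1 by -0.59. DIC1, the dicarboxylate carrier, changed by -1.59. The OSM1 value was -0.09 and not called with library totals alone.

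The other dehydrogenases that feed ubiquinone or cytochrome c rose in 6 of 6 cases, beside 41.7% of all tested genes. Their median log2 fold change was 3.35. CYB2, L-lactate cytochrome c oxidoreductase, had the highest value (5.07, SE 0.20) and NDE1, an external NADH dehydrogenase, the lowest (1.03, SE 0.13). Their range of fold changes therefore enclosed those of all 7 members.

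Of 8 regulators of carbon source genes, 6 rose and 2 were not called (median log2 fold change 1.79), beside 41.7% of all tested genes called higher. CAT8, an activator of gluconeogenic and glyoxylate genes, rose most, with 341, 352 and 399 normalized CPM in glycerol, against 8.63, 15.04 and 12.8 in glucose (log2 fold change 4.90, SE 0.17). SIP4 (3.28), its partner in binding the same element, and the repressor genes NRG1 (2.67) and MIG1 (2.15) also rose. In the Hap complex HAP2 (1.43) and HAP5 (0.63) rose, whereas HAP3 had a log2 fold change of 0.02 (SE 0.12, adjusted p = 0.902). HAP4, the activating subunit, had 235, 232 and 262 normalized CPM in glycerol and 163, 206 and 261 in glucose (log2 fold change 0.21, SE 0.14, adjusted p = 0.181). The HAP4 groups overlapped, with glucose replicate 3 at the glycerol level, and without that library HAP4 passed the edgeR test (0.40, adjusted p = 0.0062).

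**Figure D4:**
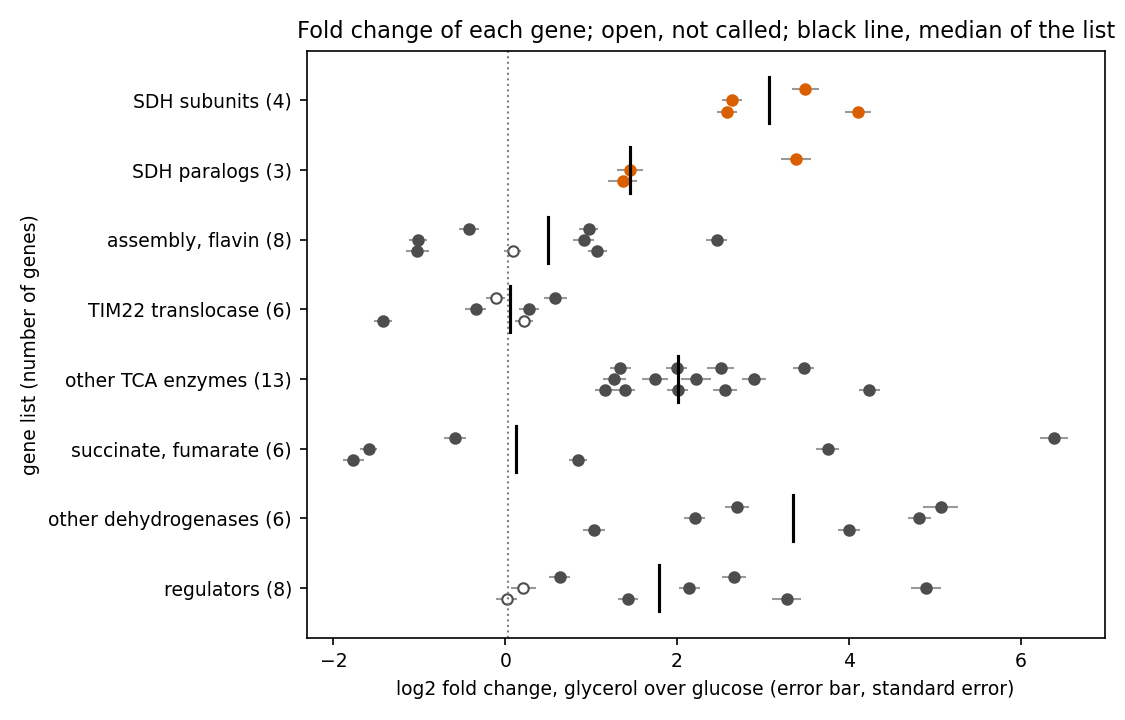
Log2 fold change, glycerol over glucose, of each gene in the 7 members (orange) and the 6 related lists (grey), with the standard error as a bar, open points for genes that did not pass the test, a black line at the median of each list and a dotted line at the median of all tested genes. The subunits (median 3.07) lie beside the other dehydrogenases (3.35) and the TCA enzymes (2.01), whereas the assembly genes (0.50), the TIM22 genes (0.05) and the succinate and fumarate genes (0.13) spread to both sides of 0.

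The level of the scale itself moved with the scaling method. With library totals alone in place of composition factors, the middle of all tested genes moved to a log2 fold change of 0.52, with 3605 genes called higher and 1652 lower in glycerol, against 2637 higher and 2539 lower with the factors. SDH1 then had a log2 fold change of 4.60 and YMR118C one of 1.87, which is above the main values by about the shift of the median, and all 7 calls held.

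Genes with the profile most like that of the 4 subunits were sought among the 5439 tested genes whose level averaged 10 normalized CPM or more, by the root mean square distance of centred log2 levels over the 6 libraries. The nearest were GUT1, glycerol kinase, at a distance of 0.046, YMR085W, an uncharacterized gene, at 0.060, ATH1, acid trehalase, at 0.072, SSA4, a heat shock protein, at 0.082, and KDX1, a protein kinase, at 0.086. GUT1 had 488 normalized CPM in glycerol and 55.5 in glucose on average (log2 fold change 3.14, SE 0.12). Each of these lay nearer to the mean subunit profile than any subunit did, since the subunits themselves ranged from 0.183 for SDH2 to 0.459 for SDH1. Among the paralogs YLR164W was at 0.186, as close as SDH2, and YJL045W and YMR118C were at 0.913 and 0.972. With 6 libraries in 2 groups, a gene with a fold change close to that of the mean profile is near by construction.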

How the data were processed

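Poly(A) RNA of 3 glycerol and 3 glucose cultures was sequenced as 150-base read pairs. The authors deposited 1 table for all libraries, with unnormalized counts per gene, FPKM values (the authors' scaling by gene length and library size) and the gene length as other information. The submitters' processing notes name fastp 0.20.1, HISAT2 2.2.1, featureCounts 2.0.1, DESeq2 and the R64 genome, and their settings are not given in the sources used here. Columns with the authors' own fold changes and p-values were not used, and 0 per-sample columns were left out. Of the table's genes, 283 had 0 counts in all libraries.

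The 6330 genes that reached 10 counts in 3 or more libraries entered 1 edgeR quasi-likelihood fit (edgeR 4.0.16, limma 3.58.1, R 4.3.3) after TMM scaling, and p-values were adjusted by Benjamini-Hochberg over all of them (threshold 0.05). A normalized CPM divides a count by the product of library total and TMM factor. TMM factors lay between 1.18 and 1.20 in glycerol and between 0.829 and 0.865 in glucose. Shares and ratios were taken within libraries and tested by exact permutation. DESeq2 1.42.0 and other filters, scalings and left-out libraries were alternatives. Of these steps, only the edgeR fit was tested on simulated counts with known fold changes. Far fewer genes changed in the simulation than were called here, so it did not test the scaling of these data.

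Coding sequences and upstream windows came from the RefSeq R64 genome, where 7 of 7 members have the coordinates of the table (Biopython 1.88, matplotlib 3.10.9, Python 3.11.15). Named genes are the members, all or the extreme and uncalled genes of the lists (strain deletions, both mating types, assembly and flavin supply, TIM22 translocase, TCA cycle, succinate and fumarate, other dehydrogenases, regulators) and the 5 nearest profiles. LSC2, the partner of LSC1, the upstream neighbours MAS1 and AVT3 on the opposite strand, and YKL147C are also named. Members and lists were chosen with earlier results of these data known. Replicates differed by more than counting noise (chi-square per degree of freedom 16.1 to 62.2). The paper describes the 3 libraries of a condition as biological replicates. Since no source says how the cultures were separated, p-values measure only the spread between these libraries.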

Additional observations from a re-analysis of the deposited data

How the results depend on the processing

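All 7 members stayed higher in glycerol and past the threshold under every alternative that was run, which were other scalings, DESeq2, other filters, a replicate block and each library left out in turn. Leaving out a library gave log2 fold changes between 3.996 and 4.24 for SDH1, 3.36 and 3.64 for SDH2, 2.54 and 2.67 for SDH3, 2.58 and 2.73 for SDH4, 1.39 and 1.55 for YJL045W, 1.19 and 1.52 for YMR118C, and 3.18 and 3.54 for YLR164W. With library totals alone, 1652 of all tested genes and 5 of the genes of the 6 lists were called lower in glycerol, against 2539 and 8, and FAD1 (0.074), TIM22 (0.38) and TIM12 (0.15) changed sign, as the median of all genes rose to 0.52, and SDH5, TIM22, TIM54, HAP3 and HAP4 were called higher. HAP3, which was not called, lay between -0.060 and 0.13 when single libraries were left out, with -0.01 without glucose replicate 2. In the TIM22 list 4 genes rose and 1 fell with library totals alone, 3 rose with a minimum of 50 counts, with the block and without glucose replicate 3, 1 rose with DESeq2, and 1 rose or 1 fell in several fits without a library, against 2 and 2. Libraries with the same replicate number deviated together at r = 0.171, 0.0592 and 0.197 over all tested genes, and at 0.25, 0.105 and 0.289 over 5667 genes averaging 100 counts or more, where each passes 0.1. As no source says what a number shares, and number 2 is under 0.1 in the larger set, they were not treated as pairs, a choice that rests on the genes used. With the replicate block SDH1 had a log2 fold change of 4.12, 5229 genes were called, against 5176, and TIM54 passed the threshold (0.22, adjusted p = 0.049). Same-numbered differences of the shares and ratios gave p = 0.25 in an exact sign-flip test, the smallest possible with 3 pairs. The glucose counts of YLR164W, 48 to 91, and of the other paralogs limit the precision of their shares.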

Other observations

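The glucose libraries differed among themselves for some genes, a pattern looked for after the values had been seen. SDH1 and SDH2 were lowest in glucose replicate 1, intermediate in replicate 2 and highest in replicate 3, with 53.2, 63.9 and 74.9 normalized CPM for SDH1. The same order held for 10 of the 13 other TCA enzymes (76.9%) and for 3 of 6 other dehydrogenases (50%), beside 27.4% of all tested genes. It held for 2 of 7 members (28.6%) and 3 of 8 regulators (37.5%), namely HAP2, HAP4 and HAP5. Among assembly and flavin genes it held for 2 of 8 (25%), among TIM22 genes for 1 of 6 (16.7%) and among succinate and fumarate genes for 2 of 6 (33.3%). The shares of these last 5 sets were near that of all tested genes. SDH3, with 126, 117 and 129 normalized CPM, and SDH4, with 91.3, 96.5 and 85.9, did not have this order. Replicates have no order of their own, and what set these libraries apart was not tested.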
